A study of Mus musculus with 2 samples.

Results

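Among mast cells grown from mouse aorta, 1312 cells carried the Mrgprb receptor transcripts together with more transcripts of the amino acid transporter gene Slc6a13 and the carboxypeptidase gene Cpb1 than of Nrgn and Cacnb4. They are called Slc6a13/Cpb1 cells here. They were chosen from their counts of unique molecular identifiers (UMIs, each marking 1 captured RNA molecule) in steps. Barcodes had at least 500 genes, at least 1000 gene UMIs and at most 10% mitochondrial UMIs, which left 33964 of 34813. Mast cells had at least 1.5% of their UMIs from Cpa3 and Cma1, under 0.1% from C1qa, C1qb and C1qc, and under 0.2% from Col1a1, Col1a2, Col3a1 and Dcn, which left 24344. Of these, 17296 were taken as non-cycling, with UMIs of at most 1 of the 6 genes Mki67, Top2a, Birc5, Cdk1, Ube2c and Cenpf. At least 3 UMIs of Mrgprb1 and Mrgprb2, and more of them than of Slc6a4 and Ctse, marked 5238 Mrgprb cells, and Slc6a13+Cpb1 exceeded Nrgn+Cacnb4 in 1312 of them. The Slc6a13/Cpb1 cells were 7.59% of the non-cycling mast cells (exact 95% interval 7.20 to 7.99), 25.05% of the Mrgprb cells and 3.86% of all barcodes past the quality limits. The split reads a difference of a few UMIs per cell, so the set is a range of that difference and not a cell type.

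The cells came from the aorta of C57BL/6J mice (2 males, 12 weeks old); the vessels were digested, plated in methylcellulose and cultured for 14 days. Macrophage colonies (CFU-M) were picked and dispersed, viable DAPI-negative cells were sorted, and suspensions were labelled with lipid-anchored MULTI-seq oligonucleotides before 1 droplet run with a 10x 3′ kit. All sets compared below share this strain, sex by label, age, culture and run, and neither treatment nor genotype was compared. The labels tie no cell to a mouse or a colony, so these cannot be told apart, and all cells had grown in vitro. With 1 library there is no replicate and no test: every interval below is a 95% interval that covers counting error alone.

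Mast cells are granulated immune cells that store histamine, heparin and proteases and release them when IgE receptors or other receptors are engaged. Mrgprb2 encodes the receptor through which basic peptides and many cationic drugs activate connective tissue mast cells without IgE, and Mrgprb1 is a related gene of the same cluster. Slc6a13 encodes GAT2, a sodium-coupled transporter of GABA and taurine in the SLC6 family, to which the serotonin transporter gene Slc6a4 also belongs. Its neighbour Slc6a12 encodes BGT1, a transporter of betaine and GABA. Cpb1 encodes carboxypeptidase B1, a relative of the mast cell carboxypeptidase Cpa3. On the other side of the split, Nrgn encodes the calmodulin-binding protein neurogranin and Cacnb4 a subunit of voltage-gated calcium channels.

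The genes that define the cells lie in small clusters of relatives (GRCm38). Slc6a13 lies at chr6:121300227-121337733 on the plus strand, and Slc6a12 begins 5.34 kb past its end, at chr6:121343076-121365775 on the same strand. Cpb1 at chr3:20248264-20275733 lies 6.08 kb from Cpa3 at chr3:20215620-20242181, both on the minus strand. Mrgprb2 at chr7:48550965-48558086 and Mrgprb1 at chr7:48444113-48456342, also on the minus strand, are 94.6 kb apart. The promoters of 4 genes are shown because Slc6a13, Cpb1 and Mrgprb2 chose the cells and Slc6a12, which the rule did not use, was among the genes with the highest ratios. Each is the 250 bases before the RefSeq start (GRCm38.p6), 5′ to 3′ on the gene's strand, and capitals mark GATAA, the core read by GATA factors, or CATGTG, an E-box read by MITF, on either strand.
Slc6a13, chr6:121300038-121300287, plus strand: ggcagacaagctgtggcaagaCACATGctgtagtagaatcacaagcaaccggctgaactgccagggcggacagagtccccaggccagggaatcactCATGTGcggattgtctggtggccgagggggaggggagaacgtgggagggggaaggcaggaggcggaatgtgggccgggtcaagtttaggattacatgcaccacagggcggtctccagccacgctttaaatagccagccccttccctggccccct
Slc6a12, chr6:121342826-121343075, plus strand: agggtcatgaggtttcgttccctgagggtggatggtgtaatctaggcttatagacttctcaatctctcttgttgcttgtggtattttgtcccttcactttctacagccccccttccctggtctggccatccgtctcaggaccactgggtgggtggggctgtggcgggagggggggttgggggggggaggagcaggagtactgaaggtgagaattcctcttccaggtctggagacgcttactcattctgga
Cpb1, chr3:20275734-20275983, minus strand: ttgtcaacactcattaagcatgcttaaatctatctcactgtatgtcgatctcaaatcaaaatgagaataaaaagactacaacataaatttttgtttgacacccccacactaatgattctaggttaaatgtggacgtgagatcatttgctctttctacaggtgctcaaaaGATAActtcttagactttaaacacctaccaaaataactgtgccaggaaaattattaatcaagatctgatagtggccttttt
Mrgprb2, chr7:48558087-48558336, minus strand: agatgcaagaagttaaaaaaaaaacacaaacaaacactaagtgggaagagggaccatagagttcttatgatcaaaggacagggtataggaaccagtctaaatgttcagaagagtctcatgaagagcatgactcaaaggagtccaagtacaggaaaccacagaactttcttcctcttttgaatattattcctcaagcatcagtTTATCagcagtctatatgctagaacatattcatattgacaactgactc
The Slc6a13 window, taken at the RefSeq start nearest to the annotated gene start (61 bases from it, of 3 starts), held CATGTG at 2 places, 229 and 154 bases before the start, and no GATAA. The Cpb1 window held GATAA 81 bases before the start, and the Mrgprb2 window held it 48 bases before the start, as TTATC. The Slc6a12 window held neither word. Over 32851 RefSeq starts, 22.6% of windows of this length held GATAA, 12.25% held CATGTG and 1.62% held CATGTG at 2 or more places, so the words are common and a match describes letters, not a bound site.

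The library held 593248944 gene UMIs. The Slc6a13/Cpb1 cells had a median of 9819 UMIs (10th to 90th percentile 5648 to 18166), close to the 9890 of the other non-cycling mast cells, and medians of 2974 and 2983 genes and of 1.75% and 2.13% mitochondrial UMIs. No barcode occurred more than once. Scrublet called 8.003% of the Slc6a13/Cpb1 cells and 5.82% of the others as doublets, and these calls were kept. All 9 listed mast cell markers exceeded 10 CPM (UMIs per 1000000 gene UMIs), and the list summed to 70478 CPM against 68789 in the others. Cpa3 and Cma1, which the rule used, made up 18743 and 26311.5 CPM of that sum. All 9 also passed 10 CPM in cells chosen for collagen or C1q UMIs (described below), so that limit does not mark mast cells. Outside the rule, Mcpt4 stood at 9846 CPM, Kit at 1428 CPM and Gata2 at 734 CPM, against 10468, 1467 and 713 CPM in the others. Features of the library that go against its labels or bear on its sources are these. Xist, the RNA of the inactive X chromosome in female cells, had UMIs in 89.1% of the Slc6a13/Cpb1 cells although the labels name male mice, and 3 MULTI-seq tags were present within the same run. Results that depend on Xist or on tags are given with and without the cells concerned.

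Many of the cells sat at the edge of the split. A difference of exactly 1 UMI between Slc6a13+Cpb1 and Nrgn+Cacnb4 placed 643 cells (49.0%) among the Slc6a13/Cpb1 cells, a difference of 2 placed 298 (22.7%), and 371 (28.3%) had a difference of 3 or more. Just outside lay 412 Mrgprb cells with equal UMIs above 0, 918 with no UMI of the 4 genes, and 704 with 1 UMI more of Nrgn+Cacnb4. Summed Slc6a13 was 114 CPM at a difference of 1, 190 CPM at 2 and 315 CPM at 3 or more, against 103 CPM in cells with equal UMIs above 0 and 49.4 CPM at a difference of -1. The 918 cells with no UMI of the 4 genes have no Slc6a13 by construction, and these levels follow from the rule.

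**Figure D1:**
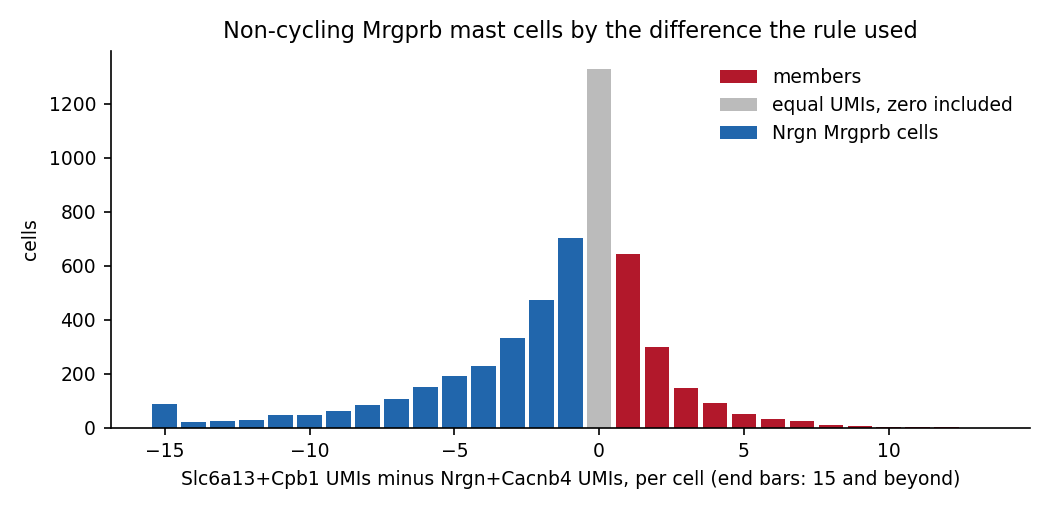
Number of non-cycling Mrgprb mast cells (y axis) by Slc6a13+Cpb1 UMIs minus Nrgn+Cacnb4 UMIs in the cell (x axis, end bars collect 15 and beyond). The 1312 Slc6a13/Cpb1 cells (red) begin at 1 UMI, where 643 of them lie, next to 1330 cells at 0 (grey).

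The genes used by the rule are given as description. Per cell, the Slc6a13/Cpb1 cells had a median of 7 UMIs of Mrgprb1+Mrgprb2 (maximum 46) and of 2 UMIs of Slc6a13+Cpb1 (maximum 19). Slc6a13 had a UMI in 1074 cells and Cpb1 in 624, while Cacnb4 had one in 516 and Nrgn in 61. Slc6a13 stood at 194 CPM (187 to 202), against 57.7 CPM in the 2596 Mrgprb cells with more Nrgn+Cacnb4 (Nrgn/Cacnb4 cells below) and 42.3 CPM over all 15984 other non-cycling mast cells. Cpb1 stood at 74.1 CPM (69.8 to 78.7), against 23.6 CPM in the Nrgn/Cacnb4 cells and 29.5 CPM in the others. Cacnb4, which overlaps the annotated gene A430018G15Rik, stood at 65.3 CPM against 379 CPM in the Nrgn/Cacnb4 cells, and Nrgn at 6.04 CPM against 50.5 CPM. Mrgprb1, at 614 CPM in the Slc6a13/Cpb1 cells and 640 CPM in the Nrgn/Cacnb4 cells, was near the same level on both sides of the split, as was Mrgprb2 (204 and 200 CPM). Reads of Mrgpr genes, which are close relatives, may be split between copies.

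The label pairs Slc6a13 with Cpb1, but most of the cells showed 1 of them: 688 cells (52.4%) had Slc6a13 UMIs and none of Cpb1, 238 (18.1%) had Cpb1 UMIs and none of Slc6a13, and 386 (29.4%) had both. To ask whether the genes go together, Mrgprb cells were chosen again by 1 gene and read for the other. In 940 cells with more Slc6a13 than Nrgn+Cacnb4 UMIs, Cpb1 stood at 38.7 CPM (35.0 to 42.6), against 34.1 CPM (32.5 to 35.8) in the remaining 4298 Mrgprb cells. In 439 cells with more Cpb1 than Nrgn+Cacnb4 UMIs, Slc6a13 stood at 88.1 CPM (79.99 to 96.7), against 88.2 CPM (85.7 to 90.8) in the remaining 4799. Choosing by either gene therefore gave little or no more of the other within the Mrgprb cells. Outside them the genes did go together: in mast cells of neither the Mrgprb nor the Slc6a4/Ctse set, Cpb1 was 28.3 CPM in cells with no Slc6a13 UMI, 37.7 CPM with 1, 55.5 CPM with 2 and 58.4 CPM with 3 or more.

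A part of the difference in each of the 4 genes persisted in UMIs that did not choose the cells. When each cell's UMIs of the 4 genes were divided at random into a portion that chose the cells and a portion set aside, the chosen 1062 Slc6a13/Cpb1 cells had 147 CPM of Slc6a13 in the portion set aside, against 79.7 CPM in 2175 Nrgn/Cacnb4 cells. That ratio of 1.85 (1.69 to 2.02) compares with 4.66 in the UMIs that chose the cells. For Cpb1 the ratio was 1.80 (1.55 to 2.08) in UMIs set aside and 5.34 in those used. Cacnb4 was lower by a ratio of 0.350 (0.324 to 0.378) and Nrgn by 0.245 (0.192 to 0.309) in UMIs set aside, against 0.120 and 0.0807 in those used. The difference in these 4 genes was thus smaller than the choosing UMIs show, but each kept its direction, and it was larger for the Nrgn/Cacnb4 side than for the Slc6a13/Cpb1 side. Each gene was read in cells that its own UMIs helped to choose, so its direction follows wherever its level varies between cells. The values set aside therefore do not show that the genes of a side go together.

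**Figure D2:**
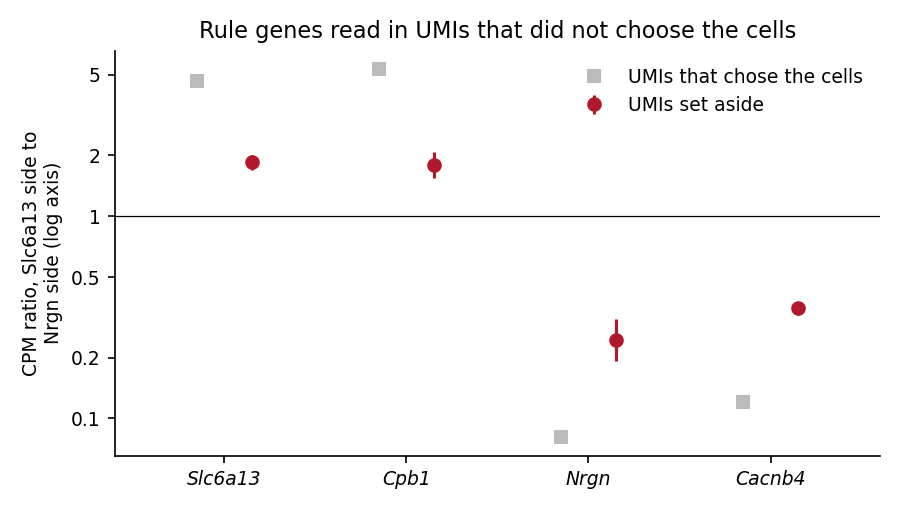
CPM ratio of Slc6a13/Cpb1 cells to Nrgn/Cacnb4 cells (log y axis) for the 4 split genes, in the UMIs that chose the cells (grey squares) and in the UMIs set aside (red points, bars are 95% counting intervals). In UMIs set aside, Slc6a13 and Cpb1 lie at 1.85 and 1.80, and Nrgn and Cacnb4 at 0.245 and 0.350.

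Against all other non-cycling mast cells, few genes outside the rule differed by 2 times or more. At 10 CPM or more in either group, 7641 genes were compared, and 20 (0.262%) were 2 times or more higher in the Slc6a13/Cpb1 cells, 4 of them used by the rule. Another 9 (0.118%) were 2 times or more lower, 2 of them used by the rule. The median ratio over all genes compared was 0.990. The genes on the higher side that did not rest on single cells included Slc6a12 beside Slc6a13, the receptor gene Mrgprx1, the chemokine gene Ccl3, the enzyme gene Mboat2, the progesterone receptor gene Pgr, the receptor gene Pilra and the protease gene Prss34. The lower side was led by haemoglobin genes and by Ctsg, which encodes cathepsin G.

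Among transporters, Slc6a12 stood at 24.7 CPM (22.2 to 27.4) in the Slc6a13/Cpb1 cells and 8.69 CPM in the others, a ratio of 2.84 (2.53 to 3.19). It had UMIs in 283 Slc6a13/Cpb1 cells with at most 5 in a cell, so no single cell carried it. The other SLC6 genes past 10 CPM did not share this: the taurine transporter gene Slc6a6 stood at 213 against 204 CPM, the creatine transporter gene Slc6a8 at 15.6 against 14.6 CPM and the glycine transporter gene Slc6a9 at 18.3 against 20.5 CPM. Genes that make or break down GABA and taurine gave no ratio of 1.5 or more in the 5 of 25 listed that reached 10 CPM, against 0.89% of all genes compared. Neither Gad1 nor Gad2, the genes of GABA synthesis, had a UMI in the Slc6a13/Cpb1 cells, and the GABA breakdown gene Abat stood at 4.96 CPM. Glul, which encodes glutamine synthetase, stood at 122 CPM, against 107 CPM in the others.

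Among receptors, Mrgprx1, a further Mrgpr gene outside the rule, stood at 19.7 CPM (17.5 to 22.1) against 6.87 CPM, a ratio of 2.87. Mrgpra4 stood at 9.44 against 11.6 CPM, and Mrgprb3, Mrgprb4, Mrgprb5 and Mrgprb8 had no UMI in these cells. Pilra, an inhibitory paired receptor of myeloid cells whose gene overlaps Zcwpw1, stood at 48.2 against 22.5 CPM (ratio 2.14), and its activating partner Pilrb1 at 19.9 against 10.9 CPM (1.83). Pgr stood at 30.3 CPM (27.5 to 33.2) against 12.9 CPM, a ratio of 2.35. Mrgprx1, Pilra and Pgr were thus more than 2 times higher. The IgE receptor chains were near the level of the others: Fcer1a stood at 4301 against 4009 CPM and Ms4a2 at 698 against 671 CPM. Kit, the receptor of stem cell factor, stood at 1428 against 1467 CPM. Il1rl1, which encodes the IL-33 receptor ST2, stood at 2886 against 2375 CPM, a ratio of 1.22.

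Among secreted proteins, Ccl1, which encodes a ligand of CCR8, stood at 24.1 CPM against 8.21 CPM, a ratio of 2.94 (2.61 to 3.30). It was concentrated in few cells: 73 Slc6a13/Cpb1 cells held its 355 UMIs and 1 cell held 69, and the ratio was 2.55 without the highest cell of each group, 1.81 in cells with no UMI of the 6 cycling genes and 7.88 with a rule difference of at least 3 UMIs. In thinned cells, 3.44% of Slc6a13/Cpb1 cells and 2.58% of the others had a Ccl1 UMI. The monocyte chemokine gene Ccl7 stood at 1024 against 529 CPM (ratio 1.94), and its neighbour Ccl2 at 2627 against 2075 CPM (1.27). Ccl3 stood at 13.8 against 4.99 CPM (2.76) and Ccl4 at 24.2 against 14.7 CPM (1.65). For Ccl4, 1 Slc6a13/Cpb1 cell held 79 of 356 UMIs, and thinned shares were 5.37% (4.16 to 6.80) and 4.70%. Tnf was on the other side at 95.5 against 129 CPM (0.74). Of 16 listed cytokine and growth factor genes past 10 CPM, 4 were 1.5 times or more higher (0.89% of all genes compared) and 0 as much lower (0.694%), with a median ratio of 1.27.

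Among granule proteins, the chymase-family and tryptase genes stood close to the others, and 3 proteases outside the rule did not. Mcpt4 stood at 9846 CPM with a ratio of 0.94 and Tpsb2 at 7063 CPM with a ratio of 1.01. Prss34, a tryptase-like protease of mast cells and basophils, stood at 84.9 CPM (80.2 to 89.7) against 42.3 CPM, a ratio of 2.01, carried by 187 of the Slc6a13/Cpb1 cells. Ctsg stood at 96.8 CPM (91.8 to 102) against 246 CPM, a ratio of 0.39. The low-level gene Mcpt2 stood at 6.79 against 12.0 CPM (0.57), and Gzmb, which encodes granzyme B, at 431 against 558 CPM (0.77). Genes of the mast cell amines differed less: Hdc, which makes histamine, stood at 1353 against 1097 CPM (1.23), Slc18a2, which loads amines into granules, at 631 against 489 CPM (1.29), and Tph1, which makes serotonin, at 2557 against 2709 CPM (0.94).

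Other leading genes were of mixed function. Mboat2, a lysophospholipid acyltransferase gene overlapping 2900060N12Rik, stood at 30.4 CPM (27.6 to 33.3) against 12.6 CPM (ratio 2.41). Lsamp, which encodes an adhesion protein and overlaps Gm28750, stood at 22.5 against 11.3 CPM (1.99). Atp6v0d2, a subunit of the proton pump of acidic vesicles, stood at 32.5 against 16.9 CPM (1.92). The unnamed transcripts Gm19585 and Gm4847 had ratios of 1.75 each. Of these genes, 5 were carried wholly or partly by single cells: 1 Slc6a13/Cpb1 cell held 619 of 862 UMIs of Pcdh9. Without the highest cell of each group the Pcdh9 ratio of 2.62 became 0.77. Grik2, which overlaps Gm26543 and Gm47018 on its own strand, had 79 of 300 UMIs in 1 cell, and Ebf1 had 106 of 296. Thinned, Grik2 had a UMI in 6.54% of Slc6a13/Cpb1 cells and 4.46% of the others. By the same step as for Pcdh9, Grik2 went from 1.84 to 1.36 and Ebf1 from 1.74 to 1.14. Cfd and Hp, with 176 of 180 and 153 of 185 UMIs in 1 cell each, went from 6.79 to 0.46 and from 3.14 to 0.74. Other genes past 2 times at a lower level were Cyp4a12a, Tnfrsf9, Cep126 and Krt4, with 10.7, 13.6, 18.7 and 16.0 CPM.

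**Figure D3:**
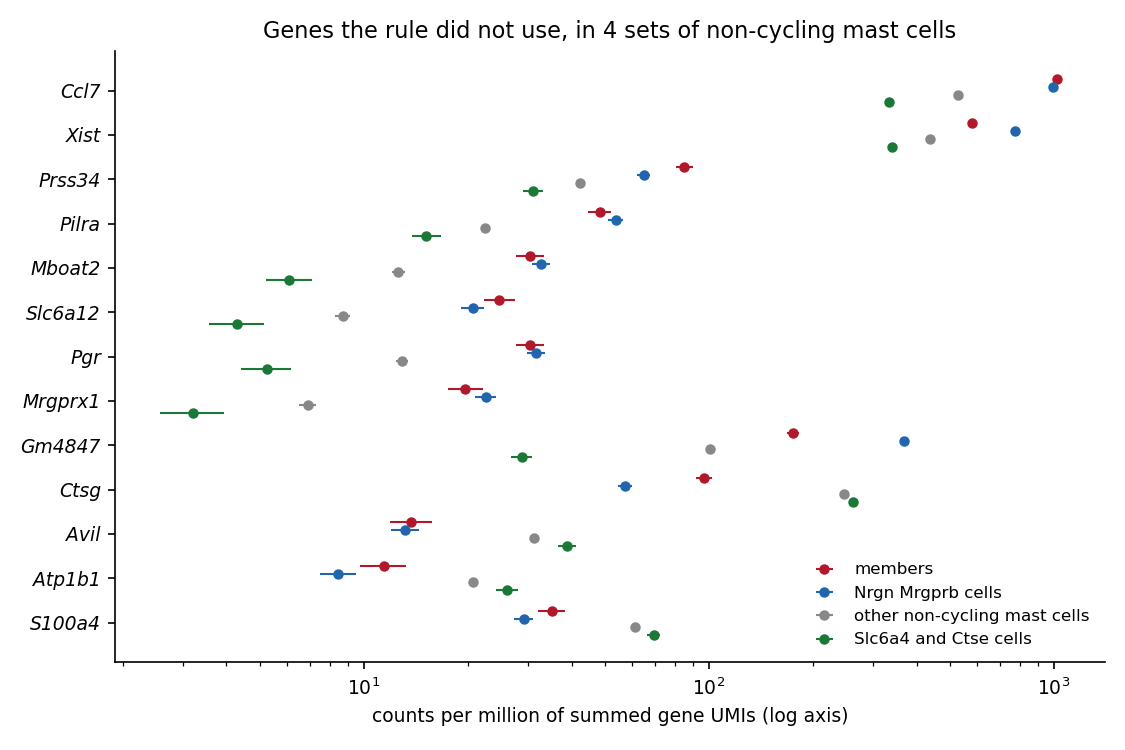
CPM of summed UMIs (log x axis) of 13 genes the rule did not use, in Slc6a13/Cpb1 cells (red), Nrgn/Cacnb4 cells (blue), all other non-cycling mast cells (grey) and Slc6a4/Ctse cells (green), with 95% counting intervals. For Slc6a12, Pgr, Mboat2 and Mrgprx1, red and blue points lie together, above grey, with green lowest, and for Ctsg, Avil, Atp1b1 and S100a4 they lie below grey and green.

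On the lower side, haemoglobin came from few cells of the compared set. Hbb-bs stood at 9.71 against 97.0 CPM, but 9 of the other cells held 15850 of its 17523 UMIs there, and without cells of 100 or more Hbb-bs UMIs its ratio of 0.10 became 1.05. Hba-a1 and Hba-a2, which are near-identical copies, stood at 2.58 and 1.90 CPM against 35.5 and 25.5 CPM in the others. Avil, an actin-binding protein of the villin family whose gene overlaps Tsfm, stood at 13.7 against 31.2 CPM (0.44). S100a4, a calcium-binding protein, stood at 35.0 against 61.3 CPM (0.57), and Cdkn2a, which encodes cell cycle inhibitors, at 19.6 against 33.0 CPM (0.60). Atp1b1 (0.55), Stmn2 (0.56), Atp8b4 (0.56), Skap1 (0.59) and the transcripts 1700111E14Rik (0.52), Gm15563 (0.54), Gm16599 (0.54) and Gm15261 (0.59) made up the rest of the named genes. The last 4, and Atp1b1, overlap a gene on the opposite strand, as do Cacnb4, Pilra, Mboat2, Lsamp and Avil. Use of strand in counting is not given here, and the source of these reads was not tested.

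Seen by list, 18 of 339 listed genes at 10 CPM, counted per list and without the rule's genes, passed 1.5 times: 11 higher and 7 lower. Over all genes compared, 0.89% passed 1.5 times on the higher and 0.694% on the lower side. No gene passed in 20 of 30 lists. Among these, the median ratio was 1.11 for carboxypeptidases, 1.12 for GABA and taurine genes, 1.04 for amine genes, 1.05 for receptors of activating and calming ligands, 1.04 for cytokine receptors, 1.00 for eicosanoid synthesis, 1.01 for serglycin and heparin synthesis and 0.99 for connective tissue-type mast cell genes. It was 0.98 over 30 lineage transcription factors, of which Meis1 had the lowest ratio (65.3 against 84.9 CPM, 0.77). It was 1.06 for integrins and for lysosome genes, 0.97 for immediate early genes, 0.95 for the unfolded protein response, 0.96 for ion channels, 0.92 for glycolysis and 0.91 for sterol synthesis. It was 0.91 for S phase, 0.97 for G2 and mitosis, 0.88 for interferon response and 0.91 for MHC class II. Lists with a gene past 1.5 times were the proteases (Prss34 higher, Ctsg and Mcpt2 lower), Mrgpr receptors (Mrgprx1), SLC6 transporters (Slc6a12), IgE receptor signalling (Pilra and Pilrb1), cytokines (Ccl1, Ccl3, Ccl4 and Ccl7) and basophil genes (Prss34 and Ccl3). Lower genes also stood in the mucosal-type list (Mcpt2), the myeloid progenitor list (Ctsg), the cell cycle exit list (Cdkn2a) and the sex-linked list (Eif2s3y and Uty).

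The nearest set, the Nrgn/Cacnb4 cells, had several of these genes at a like level. These cells are part of the other non-cycling mast cells, so both comparisons share them, and values are given side by side. Of 7689 genes, 7 (0.091%) were 2 times or more higher in the Slc6a13/Cpb1 cells and 11 (0.143%) as much lower, of which the rule used 2 on each side. Slc6a12 stood at 24.7 and 20.7 CPM, a ratio of 1.20 (1.05 to 1.36). Pgr stood at 30.3 and 31.6 CPM and Mboat2 at 30.4 and 32.7 CPM. Pilra stood at 48.2 and 53.7 CPM and Mrgprx1 at 19.7 and 22.5 CPM. These 5 genes thus differed by less across the split than against all other mast cells. Further named genes differed by more than these 5: Ccl1 stood at 24.1 and 13.003 CPM, Ccl3 at 13.8 and 7.42 CPM, Prss34 at 84.9 and 64.7 CPM, and Atp6v0d2 at 32.5 and 46.6 CPM.

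What differed most outside the rule was as follows. Calca, the gene of calcitonin and the neuropeptide CGRP, stood at 71.8 CPM in Slc6a13/Cpb1 cells and 34.2 CPM in Nrgn/Cacnb4 cells, a ratio of 2.10, or 1.99 without the highest cell of each. The share of cells with Calca differed less than its level. In thinned cells it had a UMI in 14.8% (12.8 to 16.9) of Slc6a13/Cpb1 cells and 12.5% (11.2 to 13.9) of Nrgn/Cacnb4 cells. Over all other non-cycling mast cells this share was 17.3%. Ctsg stood at 96.8 and 57.2 CPM (1.69), so it was intermediate between the Nrgn/Cacnb4 cells and the remaining mast cells. Ccl4 stood at 24.2 and 12.5 CPM (1.93, or 1.60 without the highest cells), Ifitm1 at 48.2 and 34.0 CPM (1.42) and Saa3 at 46.2 and 22.7 CPM (2.04, or 1.35 without). Pcdh9 (2.35) and Ebf1 (1.84) again rested wholly or partly on 1 cell and became 0.81 and 1.27. On the lower side, Gm4847 stood at 175 and 368 CPM (0.48), Slc8a1, which encodes a sodium and calcium exchanger, at 19.8 and 41.1 CPM (0.48), and Galnt18, a glycosyltransferase gene, at 13.8 and 30.3 CPM (0.46). Bank1 stood at 38.4 and 74.9 CPM, Adamtsl3 at 34.1 and 66.4 CPM and Zmat4 at 36.1 and 67.4 CPM. These genes, like Slc8a1 and Galnt18, span 273 to 521 kb and lie in the longest group by span given below. Hba-a1 and Hbb-bs, low again, had 655 of 756 and 1765 of 2035 of their UMIs in 1 Nrgn/Cacnb4 cell.

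Past 1.5 times, the difference ran mainly 1 way, with 18 genes (0.234%) higher in the Slc6a13/Cpb1 cells and 116 (1.51%) lower. It moved with gene span: with the genes in 4 equal groups by span, the median ratio was 1.07 in the shortest, then 0.998, 0.926 and 0.832 in the longest, from 62.9 kb, which held 81 of the lower genes. The Nrgn/Cacnb4 cells had a median of 11116 UMIs, against 9819 in the Slc6a13/Cpb1 cells. Cacnb4 helped to choose the cells, and what sets this trend was not tested. Against all other mast cells, 4 groups made in the same way gave 0.998, 0.992, 0.994 and 0.977. Listed genes on the lower side were Gab2 (422 and 647 CPM), Il18r1 (177 and 295 CPM), Meis1 (65.3 and 108 CPM), Zeb1 (27.7 and 42.9 CPM) and Itga2 (9.85 and 15.7 CPM), and 22 of 30 lists had no gene past 1.5 times.

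The Slc6a4/Ctse cells, 2144 non-cycling mast cells with at least 3 UMIs of Slc6a4 and Ctse and more of them than of Mrgprb1 and Mrgprb2, lie across the first split of the rule and are also part of the other mast cells. Of 7720 genes, 62 (0.803%) were 2 times or more higher in the Slc6a13/Cpb1 cells and 48 (0.622%) lower, of which the rule used 4 and 2. Gm4847 stood at 175 against 28.7 CPM (ratio 6.12), Pgr at 30.3 against 5.23 CPM (5.79), Slc6a12 at 24.7 against 4.30 CPM (5.74), Ccl1 at 24.1 against 4.09 CPM (5.89) and Mboat2 at 30.4 against 6.08 CPM (4.99). Atp6v0d2 (3.55) and Pilra (3.17) followed, and Mrgprx1 had a ratio of 6.15. For these genes the order of levels was the same: the Slc6a4/Ctse cells had the lowest level of the 4 sets, and the Slc6a13/Cpb1 and Nrgn/Cacnb4 cells the highest 2. For Ccl1 the level came from few cells: the highest Slc6a13/Cpb1 cell held 69 of 355 UMIs, and the highest Slc6a4/Ctse cell held 3. Thinned shares of cells with Ccl1 were 3.44% and 2.40%. Of 16 cytokine genes, 6 were 1.5 times or more higher, among them Vegfa at 23.6 against 11.02 CPM (2.14), and Tnf was lower at 95.5 against 149 CPM (0.64). Over all genes, 1.99% were 1.5 times or more higher and 2.1% lower. On the lower side of this comparison, the haemoglobin genes Hba-a1, Hba-a2, Hbb-bs and Hbb-bt had ratios of 0.06, 0.06, 0.07 and 0.08. Few cells carried them: 2 Slc6a4/Ctse cells held 3622 of that set's 3859 Hbb-bs UMIs, and 1 held 692 of 1289 Hba-a1 UMIs. Thinned, Hbb-bs had a UMI in 5.62% of Slc6a13/Cpb1 cells and 5.54% of Slc6a4/Ctse cells. Then came Avil (13.7 against 38.8 CPM, 0.35), Gm2245 (7.20 against 20.02 CPM, 0.36), Ctsg (96.8 against 262 CPM, 0.37) and 1700111E14Rik (15.5 against 41.6 CPM, 0.37).

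Among the Slc6a13/Cpb1 cells, several named genes, picked here after their values were seen, differed by which of the rule's genes the cell carried. Slc6a12 stood at 30.04 CPM in cells with Slc6a13 UMIs alone, 22.3 CPM in cells with both and 14.1 CPM in cells with Cpb1 UMIs alone. Mboat2 stood at 34.6, 31.5 and 15.7 CPM in the same order, Pilra at 54.0, 47.8 and 32.3 CPM, and Prss34 at 96.1, 80.8 and 60.5 CPM. Ctsg ran the other way, at 63.0, 117 and 153 CPM. The 238 cells with Cpb1 UMIs alone were thus nearer to the other mast cells in these 5 genes, and why was not tested. Other named genes had no such order: Calca stood at 91.9, 36.2 and 85.1 CPM with Slc6a13 alone, both and Cpb1 alone, Stmn2 at 37.7, 32.5 and 37.5 CPM and S100a4 at 34.1, 34.6 and 38.7 CPM.

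The relation of Slc6a12 to Slc6a13 was present in each of 3 sets that share no cell. Over Mrgprb cells with 0, 1, 2 and 3 or more Slc6a13 UMIs, Slc6a12 stood at 14.2, 22.3, 26.3 and 34.6 CPM, the last with an interval of 30.9 to 38.5. Over Slc6a4/Ctse cells it stood at 3.31, 6.66, 7.45 and 10.5 CPM, the last from 63 cells with an interval of 5.42 to 18.3. Over the mast cells in neither set it stood at 3.35, 7.49, 11.03 and 18.0 CPM. At each count of Slc6a13 UMIs the Mrgprb cells were thus above both other sets. Over the same Mrgprb cells, Mboat2 stood at 22.2, 28.6, 33.5 and 47.5 CPM, and Pgr at 21.8, 31.5, 38.8 and 42.6 CPM. Ccl7 stood at 807, 968, 1058 and 1268 CPM. Cpb1 had no such order there, at 31.6, 40.4, 35.4 and 37.0 CPM, while Cacnb4 stood at 206, 247, 270 and 275 CPM, although the split sets it against Slc6a13. Median depth also differed, from 8956 UMIs in cells with no Slc6a13 UMI to 12622 with 3 or more; levels here are CPM, and the part of depth was not tested.

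**Figure D4:**
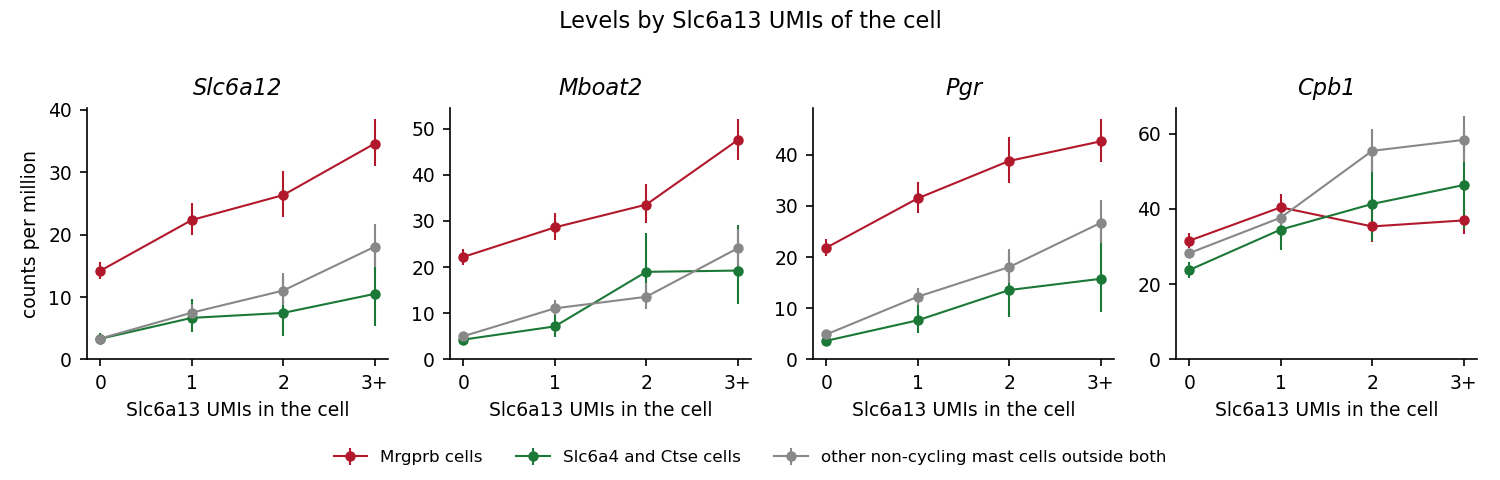
CPM of Slc6a12, Mboat2, Pgr and Cpb1 (y axes, from 0) in cells with 0, 1, 2 or 3 and more Slc6a13 UMIs (x axes), for Mrgprb cells (red), Slc6a4/Ctse cells (green) and mast cells in neither set (grey), with 95% counting intervals. Slc6a12 goes from 14.2 to 34.6 CPM over the Mrgprb cells, and Cpb1 stays between 31.6 and 40.4 CPM there.

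Genes outside the rule placed the Slc6a13/Cpb1 cells near each other, and also near the Nrgn/Cacnb4 cells. In 30 principal components made without the rule's genes, 16.2% of the 15 nearest neighbours of a Slc6a13/Cpb1 cell were such cells, against their share of 7.59%. A larger share, 24.9%, were Nrgn/Cacnb4 cells (15.01% of all), and 8.30% were Slc6a4/Ctse cells (12.4% of all). Around Nrgn/Cacnb4 cells, 41.4% of neighbours were of their own set and 13.1% were Slc6a13/Cpb1 cells. Around Slc6a4/Ctse cells, 4.38% were Slc6a13/Cpb1 cells. Of the neighbours that were Mrgprb cells, 30.7% were Slc6a13/Cpb1 cells around such cells and 20.8% around Nrgn/Cacnb4 cells. No neighbour of their own kind was found for 13.4% of the Slc6a13/Cpb1 cells, so the set did not stand apart as a cluster. The share of 16.2% was 16.0% without Xist and Y-linked genes.

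**Figure D5:**
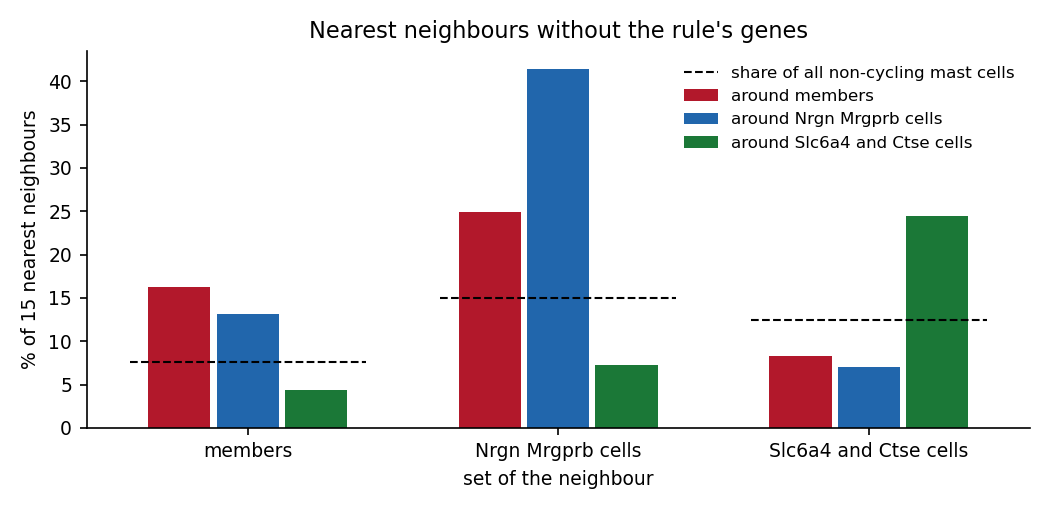
Share of the 15 nearest neighbours (y axis, percent) that belong to each of 3 sets (x axis), around Slc6a13/Cpb1 cells (red), Nrgn/Cacnb4 cells (blue) and Slc6a4/Ctse cells (green), with each set's share of all non-cycling mast cells as dashed lines. Around Slc6a13/Cpb1 cells 16.2% are of their own set and 24.9% Nrgn/Cacnb4 cells, both above the dashed lines at 7.59% and 15.01%.

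Detection was compared after each cell was thinned to 5500 UMIs, which kept 1192 Slc6a13/Cpb1 cells and left out 120, and kept 14626 others and left out 1358. Slc6a12 had a UMI in 12.2% of Slc6a13/Cpb1 cells (10.4 to 14.2; 21.6% unthinned), 11.6% of Nrgn/Cacnb4 cells, 4.84% of the others and 2.50% of Slc6a4/Ctse cells. Free RNA was gauged in 2727 cells with at least 1% collagen UMIs (median 29840 UMIs) and 1525 cells with at least 0.5% C1q UMIs (median 7320 UMIs), in which thinned Slc6a12 shares were 0.869% and 0.709%. Pgr had a UMI in 13.3% of Slc6a13/Cpb1 cells, 5.52% of the others and 0.906% and 0.531% of the collagen and C1q cells. Mboat2 gave 12.6%, 5.65%, 1.85% and 0.266% in the same order. All 3 genes were thus above their background, and most Slc6a13/Cpb1 cells had no UMI of them at this depth. Ctsg had a UMI in 19.3% (17.1 to 21.7) of Slc6a13/Cpb1 cells and 30.6% of the others, against 8.27% and 8.59% in the background cells. Avil, at 5.12% and 10.98%, compares with 9.89% of collagen cells and 3.19% of C1q cells. Ccl7, at 77.6% and 59.2%, compares with 30.2% and 75.3% in the same order, and S100a4, at 12.0% and 20.2%, with 21.6% and 44.4%. Each lay near or under the share of a background set, so no expression is read from these shares. Whether the collagen or C1q cells make these RNAs themselves was not tested.

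The share of Mrgprb cells moved with Xist. Thinned, Xist had a UMI in 83.5% of Slc6a13/Cpb1 cells (81.2 to 85.5), 92.0% of Nrgn/Cacnb4 cells, 60.5% of the others and 47.7% of Slc6a4/Ctse cells, and at least 1 of 4 Y-linked genes had one in 9.73%, 7.92%, 16.9% and 25.6%. Collagen and C1q cells, in which these genes are no background, gave 74.8% and 49.6% for Xist and 22.2% and 42.2% for Y-linked genes. Summed Xist, whose gene overlaps Tsix, was 579 against 438 CPM in the others. Of 7651 non-cycling mast cells with 3 or more Xist UMIs and no Y-linked UMI, 10.5% (9.86 to 11.2) were Slc6a13/Cpb1 cells, and of 2061 with a Y-linked and no Xist UMI, 2.67% (2.02 to 3.46). Mrgprb cells made up 45.0% of the former and 10.5% of the latter, while Slc6a13/Cpb1 cells made up 23.4% and 25.5% of those Mrgprb cells.

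Within the Xist cells alone, ratios to the other non-cycling mast cells were smaller for several genes. Slc6a12 went from 2.84 to 2.00, Pgr from 2.35 to 1.62, Mboat2 from 2.41 to 1.70, Pilra from 2.14 to 1.59 and Ccl7 from 1.94 to 1.45. Prss34 stayed at 1.99 and Lsamp at 1.90. Gm4847 went from 1.75 to 1.05 and Ctsg from 0.39 to 0.72, the widest moves toward equal levels among the genes named in this paragraph. Against Slc6a4/Ctse cells within the Xist cells, Slc6a12 had a ratio of 4.34, Pgr 4.14 and Mboat2 3.45. Within the 55 Slc6a13/Cpb1 cells that had a Y-linked and no Xist UMI, Slc6a12 had a ratio of 5.10 to the other cells of that kind. Those 55 cells had a median of 8957 UMIs, so this ratio comes from few UMIs, and it is given without an interval. Whether the Xist and Y-linked cells come from different animals was not tested.

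Tag shares were compared for the same sets. The tag named Cafum was called alone on 60.7% of Slc6a13/Cpb1 cells (58.0 to 63.3), 56.1% of Nrgn/Cacnb4 cells, 49.0% of Slc6a4/Ctse cells and 46.5% of the others, and no tag on 32.7% and 47.9% of the Slc6a13/Cpb1 and other cells. The tags named Matrigel and Macrophages were alone on 0.991% and 0.838% of Slc6a13/Cpb1 cells. Within cells called for Cafum alone, Slc6a12 had a ratio of 2.56 to the other mast cells (2.84 over all cells), Ccl1 3.28 (2.94), Pgr 2.06 (2.35), Mboat2 2.03 (2.41), Pilra 2.10 (2.14) and Prss34 1.93 (2.01). Ccl7 had 1.81 (1.94), Lsamp 1.66 (1.99), Atp6v0d2 1.64 (1.92) and Ctsg 0.35 (0.39). Pcdh9 had 1.13 (2.62), Grik2 1.14 (1.84), Ebf1 1.14 (1.74) and Hba-a1 0.17 (0.07), so these 4 moved by more than 1.5 times.

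Markers of other cell types were low. The 12 macrophage markers summed to 244 CPM in Slc6a13/Cpb1 cells and 214 CPM in the others, against 32659 CPM in the C1q cells, and the 8 fibroblast markers to 270 and 267 CPM, against 20944 CPM in the collagen cells. These sums hold C1q and collagen genes that the rule capped and that defined the C1q and collagen cells, so selection partly sets them. Of the markers outside the rule, the highest were Apoe in the macrophage list and Mfap5 in the fibroblast list. Apoe stood at 119 CPM, against 8564 CPM in the C1q cells, and Mfap5 at 22.5 CPM, against 1322 CPM in the collagen cells. The 8 endothelial markers summed to 2.58 CPM, with Cdh5, Cldn5 and Tie1 at 0. The 6 eosinophil markers summed to 1.70 CPM with Prg2, Epx, Ear1 and Ear6 at 0, and the 7 T cell markers to 0.543 CPM with Cd3e, Cd3g, Trac and Trbc1 at 0. Basophil markers summed to 91.0 against 51.0 CPM; of these, Prss34 made up 84.9 CPM and Mcpt8 6.11 against 8.77 CPM. The 7 erythroid markers summed to 16.8 against 172 CPM. Hbb-bs made up 97.0 CPM of the latter, and 9 of the other cells held 15850 of its 17523 UMIs there. The 5 megakaryocyte markers summed to 187 against 159 CPM, of which Itga2b, a gene that mast cells also express, made up 178 CPM. The 5 adipocyte markers summed to 5.30 against 1.21 CPM, the 8 neutrophil markers to 1.77 against 3.92 CPM, the 6 smooth muscle markers to 1.49 against 1.31 CPM and the 5 B cell markers to 2.24 against 0.415 CPM.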

How the data were processed

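The deposited matrix holds raw UMI counts by gene and barcode, with no normalization. Per the file headers, the authors' counter was Cell Ranger 7.0.0. The submitters' processing notes also name STAR, R 4.1.3, Seurat 4.1.1 and the build mm10. Use of strand and counting of intronic reads are not given in the sources used here. The 3 tag features, 21.9% of all UMIs, were kept out of gene totals, and the tag library listed as its own sample was not used here. Counts of the 32285 genes were summed over cells and scaled to CPM. Each CPM has an exact Poisson interval, each ratio an exact conditional binomial interval and each share a Clopper-Pearson interval, all at 95% and for counting error alone. A gene with no UMI in 1 group was ranked with 3 UMIs in its place.

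Named genes were the 15 highest and 15 lowest ratios to the other non-cycling mast cells, and the 8 highest and lowest for each other comparison, among genes at 20 CPM or more outside the rule that were neither mitochondrial nor ribosomal. A few genes that these rules select are not reported here. Genes outside that rule are named as members of fixed lists (30 lists, 569 of 575 genes matched). Mrgprx1 and Ccl3 are such list genes. Cfd, Hp, Cyp4a12a, Tnfrsf9, Cep126 and Krt4 were named after their values were seen. The cells, lists and comparisons were chosen with earlier results of these data known.

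Doublets were called with Scrublet (scanpy 1.11.5; expected rate 27.9%, threshold 0.564), which marked 3245 barcodes (9.32%). Calls were kept, and removed as an alternative. For detection, cells were thinned to 5500 UMIs. Neighbours used 2000 variable genes without the rule's genes. Tags were called at 2 times their background, Cafum at 1.4 times. On simulated counts with 200 genes changed 3 fold, all 200 were recovered and 0 unchanged genes passed 2 times in each comparison (7501, 7568 and 7543 genes). The simulated sums vary by counting error alone, without differences between cells. They therefore cannot gauge calls that rest on single cells, such as those of Pcdh9, Cfd and Hp. Promoters are from RefSeq, gene positions from GENCODE.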

Additional observations from a re-analysis of the deposited data

Results flagged for a closer look

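The matrix held tag counts that the comparisons above do not rest on. The median Slc6a13/Cpb1 cell had 2788 UMIs of the tag named Cafum, above the background of 1759 UMIs. The medians were 2456 UMIs over the other non-cycling mast cells, 2661 over the Nrgn/Cacnb4 cells, 2507 over the Slc6a4/Ctse cells, 1265 over the collagen cells and 1249 over the C1q cells. The labels do not say which suspension the tag marks.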

How the results depend on the processing

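No paired analysis was possible because 1 library was analysed and no test was made. The 7.59% share became 2.15% with a difference of at least 3 UMIs, 10.5% among cells with 3 or more Xist UMIs and no Y-linked UMI (Xist cells) and 2.67% among cells with a Y-linked and no Xist UMI (Y cells). Counts of genes past 2 times moved by over 1.5 times as follows. Against the other mast cells (20 higher, 9 lower), the lower count was 18 without Scrublet calls and 14 with the mean of CPM per cell. The higher count was 52 with a difference of at least 3 UMIs and 31 from 5 CPM. From 50 CPM the counts were 6 and 3, among Xist cells 11 and 5, and among Y cells 152 and 338. Without cells of 100 or more Hbb-bs UMIs, the lower count was 5. Against the Nrgn/Cacnb4 cells (7 higher, 11 lower), the higher count was 19 with a difference of at least 3 UMIs, 3 with the mean per cell, 4 with the Cafum tag alone and 2 without the highest cell of each group. From 50 CPM the counts were 4 and 4, among Y cells 403 and 640, and without Hbb-bs cells the lower count was 7. Against the Slc6a4/Ctse cells (62 higher, 48 lower), the higher count was 98 with a difference of at least 3 UMIs, and the lower count was 92 from 5 CPM and 77 in thinned cells. From 50 CPM the counts were 18 and 11, and among Y cells 152 and 412. Only 55 Slc6a13/Cpb1 cells were Y cells, so those counts come from few UMIs. The Cafum share was 4.04% at 3 times the background. Unthinned, Slc6a12 was detected in 21.6% and Xist in 89.1%.

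Directions turned for few named genes. Pcdh9 had a ratio of 0.72 in cells with no cycling gene, 0.71 among Xist cells, 0.81 among Y cells and 0.77 without the highest cells. Among Y cells Hba-a2 had 2.10 and Hbb-bs 1.05, and Hbb-bs also had 1.05 without Hbb-bs cells. For 14 named higher genes over 13 alternatives, 103 of 182 ratios stayed within their counting interval, 75 moved further and 4 turned. For the 15 lower genes, these were 132, 60 and 3 of 195. The alternatives by Xist, Y-linked genes, haemoglobin cells and highest cells, and the UMIs set aside, were chosen after seeing the data. The cause of these moves was not tested. Of the 1312 cells, 643 passed the split by 1 UMI.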
